A study of Mus musculus with 24 samples.

Results

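The transcripts described here are 10 products of the mouse mitochondrial chromosome: the ribosomal RNAs mt-Rnr1 (12S) and mt-Rnr2 (16S) and 8 mRNAs, mt-Nd1, mt-Nd2, mt-Nd4, mt-Nd4l, mt-Nd5, mt-Cytb, mt-Co1 and mt-Atp6. They were taken by name from a table of 55401 genes, and all 10 were among the 14749 genes that passed the filter on low counts. CD8 T cells were purified with magnetic beads from spleens and lymph nodes of C57BL/6J mice and activated in culture for 3 days with anti-CD28 and interleukin-2. From day 2 to day 3 the cultures received 20 mM sodium lactate together with Oxyrase, 20 mM sodium pyruvate, 20 mM sodium lactate or 20 mM sodium chloride (NaCl). Each of the 4 groups had 3 RNA-seq libraries, 12 in all. Oxyrase is a preparation of bacterial membranes that removes oxygen from culture medium by enzymes, and it was given only with lactate. The labels do not tell if replicates stem from different mice or cultures, and p-values measure only the spread between these samples, which may be technical.

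The mitochondrial chromosome is copied into long transcripts by the polymerase POLRMT with the factors TFAM and TFB2M, and the transfer RNAs between the other genes mark where these transcripts are cut. The rRNAs lie next to the promoters of the heavy strand and build the mitochondrial ribosome, while the mRNAs encode core subunits of the respiratory complexes. Most mitochondrial mRNAs carry poly(A) tails, whereas the rRNAs carry short tails or none. A library made from poly(A) RNA therefore holds an unknown share of the rRNAs. In the rRNA values below, more rRNA in the cell and better capture of the same rRNA cannot be told apart.

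On the GRCm38.p6 assembly in RefSeq, mt-Rnr1 (ENSMUSG00000064337) spans positions 70 to 1024 and mt-Rnr2 (ENSMUSG00000064339) positions 1094 to 2675 of the mitochondrial chromosome. The genes for complex I follow in the order mt-Nd1 (2751 to 3707), mt-Nd2 (3914 to 4951), mt-Nd4l (9877 to 10173), mt-Nd4 (10167 to 11544) and mt-Nd5 (11742 to 13565). mt-Co1 (5328 to 6872) encodes the catalytic subunit of complex IV, mt-Atp6 (7927 to 8607) a proton channel subunit of the ATP synthase, and mt-Cytb (14145 to 15288) cytochrome b of complex III. mt-Nd4l and mt-Nd4 overlap by 7 bp, and mt-Nd5 overlaps mt-Nd6 by 14 bp. mt-Atp6 overlaps mt-Atp8 by 43 bp and mt-Co3 by 1 bp. The reads of such overlapping genes cannot be fully separated.

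The libraries held 26.04 to 39.64 M estimated counts (M, mega; NaCl 3 lowest, pyruvate 2 highest). A gene with 0 counts could still have had up to 3, which is 0.0757 to 0.115 counts per M counts (CPM) in these libraries; this covers counting error only. The listed genes had at least 1147 counts in every library. The label of CD8 T cells matched the markers, since 12 of 12 markers of the lineage were present in every library. Their summed level was 2300 to 2409 CPM with lactate and Oxyrase, 2924 to 3003 CPM with pyruvate, 3005 to 3074 CPM with lactate and 3189 to 3248 CPM with NaCl. Of the B cell list, which summed to 67.2 to 78.2 CPM with lactate and Oxyrase, 149 to 154 CPM with pyruvate, 193 to 200 CPM with lactate and 204 to 214 CPM with NaCl, most came from Ighm, while Pax5, the B lineage factor, averaged 0.162 CPM over the 12 libraries. The CD4 list summed to 38.3 to 48.5 CPM with lactate and Oxyrase, 12.6 to 13.5 CPM with pyruvate, 20.0 to 21.0 CPM with lactate and 14.1 to 16.3 CPM with NaCl, most of it Zbtb7b, and Cd4 itself averaged 0.428 CPM. Foxp3, the list's other gene, averaged 0.845 CPM with lactate and Oxyrase, 3.05 CPM with pyruvate, 3.98 CPM with lactate and 4.46 CPM with NaCl. With Oxyrase Foxp3 thus moved against the sum. The NK list summed to 38.4 to 43.9 CPM with lactate and Oxyrase, 47.0 to 52.9 CPM with pyruvate, 27.8 to 33.2 CPM with lactate and 32.5 to 37.8 CPM with NaCl, and its defining receptor Ncr1 was at 0 in 11 libraries. Most of the NK sum came from Eomes and Klri2, at means of 27.7 and 11.5 CPM over the 12 libraries. By group, Eomes averaged 19.3 CPM with lactate and Oxyrase, 37.8 CPM with pyruvate, 24.8 CPM with lactate and 29.1 CPM with NaCl. With Oxyrase Eomes thus moved against the NK sum. Myeloid markers summed to at most 1.48 CPM in any library, and erythroid and platelet markers to at most 0.28 CPM. The part of these markers in the results was not tested. In such bulk libraries, fewer cells of a type and less RNA per cell cannot be told apart.

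Together the 10 transcripts made up 2.65 to 3.41% of all counts in a library. Per kb of gene, the order of levels over the 12 libraries was led by mt-Co1 at a mean of 9276 CPM per kb (8001 to 10583). mt-Nd1 came next at 2894 CPM per kb (2531 to 3317), and no library had as much mt-Nd1 per kb as the lowest had mt-Co1. mt-Cytb (2083), mt-Rnr2 (1932), mt-Nd4 (1869) and mt-Nd2 (1624 CPM per kb) followed with ranges that overlapped one another. mt-Nd5 stood at 1248 and mt-Rnr1 at 812 CPM per kb, also with overlapping ranges, and mt-Atp6 (232) and mt-Nd4l (181 CPM per kb) were lowest as counted. That place is uncertain, since summed with Gm10925 and Gm10222, genes of the same lengths on chromosome 1 with which they may share reads, their group means were 2462 to 3012 and 958 to 1164 CPM per kb. The ranges of mt-Nd1 and mt-Cytb met as well, at 2531 CPM per kb in the lowest mt-Nd1 library and 2599 CPM per kb in the highest mt-Cytb library. mt-Rnr2 reached 2686 CPM per kb and so also met mt-Nd1. mt-Nd5 reached 1483 CPM per kb, above the lowest libraries of mt-Nd2 (1410) and mt-Rnr2 (1333 CPM per kb).

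**Figure D1:**
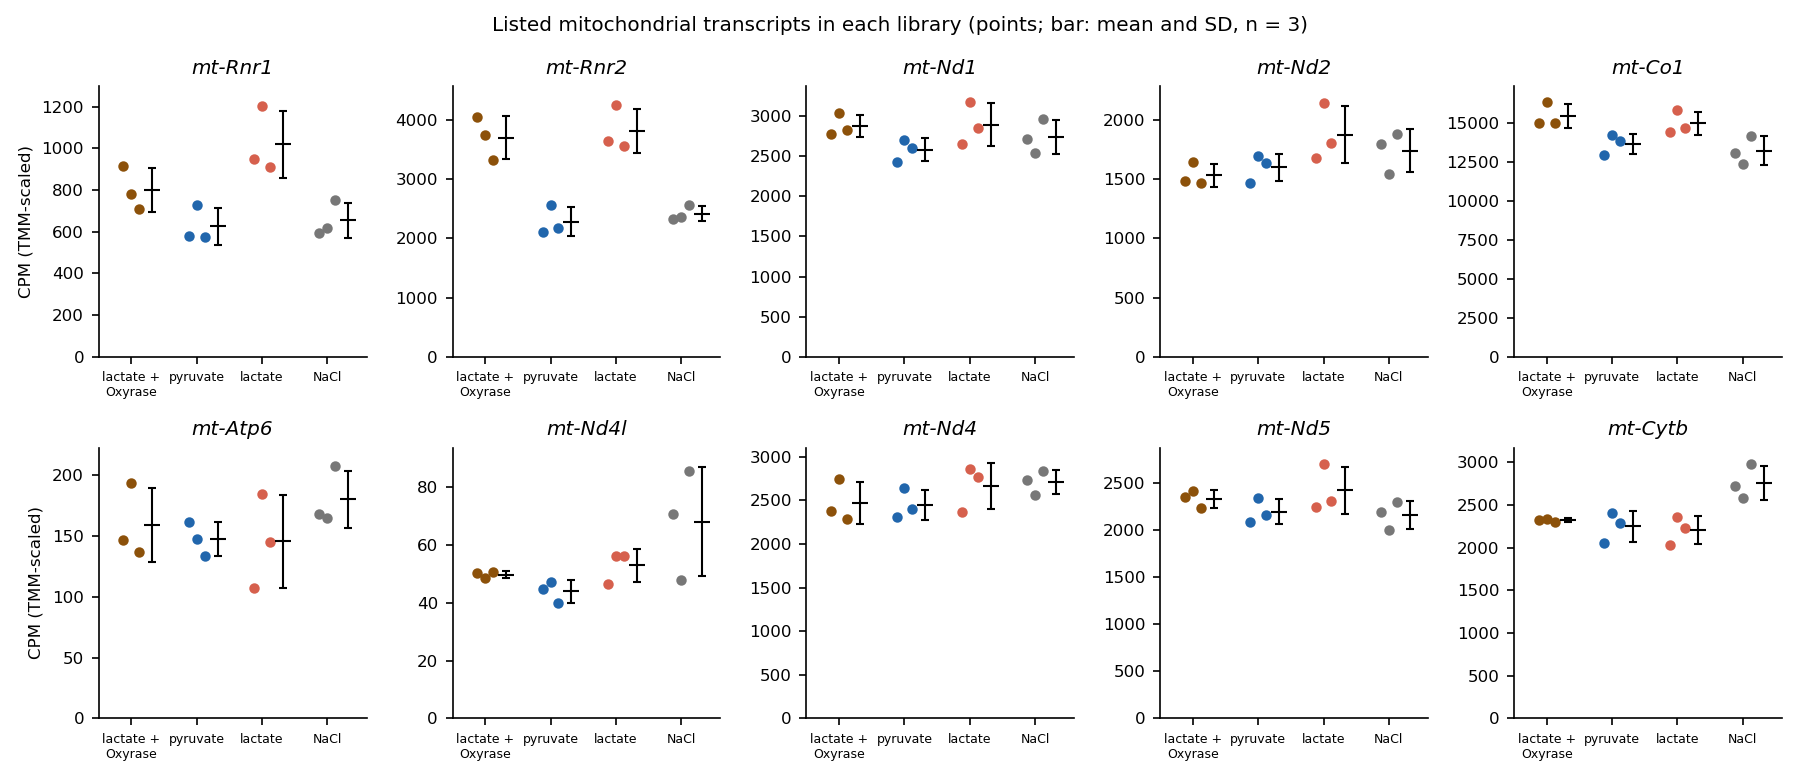
Levels of the 10 listed transcripts in each library, as CPM after TMM scaling (vertical axes, starting at 0), for lactate with Oxyrase, pyruvate, lactate and NaCl. Coloured points are libraries, and the black bar gives the mean and SD of 3 libraries. mt-Rnr2 lies at 3328 to 4249 CPM in the 6 libraries that received lactate and at 2109 to 2565 CPM in the other 6, while mt-Cytb is highest in the 3 NaCl libraries.

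Both rRNAs were higher with lactate than with NaCl. mt-Rnr2 had 3645, 4249 and 3558 CPM in the lactate libraries, against 2331, 2361 and 2565 CPM in the NaCl libraries. Every lactate library was above every NaCl library, and mt-Rnr2 rose 1.58-fold (log2 fold change 0.66 ± 0.08 SE, edgeR quasi-likelihood adjusted p = 0.000139). mt-Rnr1 had 947, 1204 and 910 CPM with lactate, against 594, 620 and 751 CPM with NaCl. These groups did not overlap either, and mt-Rnr1 rose 1.56-fold (0.64 ± 0.12, adjusted p = 0.00366). As a share of all counts, the rRNAs together took 0.450 to 0.535% with lactate, against 0.296 to 0.330% with NaCl. Of the 10 transcripts, 3 rose and 1 fell with lactate, where 3.61% of all tested genes rose and 4.12% fell.

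With lactate and Oxyrase together, mt-Rnr2 differed from lactate alone by less than the spread between libraries, whereas mt-Rnr1 lay between lactate and NaCl. mt-Rnr2 had 4046, 3741 and 3328 CPM with lactate and Oxyrase, against the NaCl values above, and rose 1.53-fold (0.62 ± 0.08, adjusted p = 5.0e-06) with no overlap between groups. Set against lactate alone, mt-Rnr2 differed by -0.04 ± 0.08 on the log2 scale (95% interval -0.21 to 0.12, adjusted p = 0.683). mt-Rnr1 had 916, 779 and 708 CPM with lactate and Oxyrase, which overlaps the upper NaCl library and the lower lactate library. It rose against NaCl (0.29 ± 0.12, adjusted p = 0.0451) and fell against lactate (-0.35 ± 0.12, adjusted p = 0.0186). Both mt-Rnr1 calls rest on few libraries: against NaCl the adjusted p was 0.170 without NaCl 1, 0.142 without NaCl 2, 0.225 without Oxyrase 1 (log2 fold change 0.18) and 0.0704 without Oxyrase 2. Against lactate it was 0.131 without lactate 2 (-0.21), 0.0597 without Oxyrase 2 and 0.0964 without Oxyrase 3. DESeq2 called neither, with adjusted p = 0.144 against NaCl and 0.0695 against lactate, and scaling by library totals alone gave 0.0584 against NaCl. Over the 10 transcripts, 3 rose and 2 fell against NaCl, beside 26.5% and 24.3% of all tested genes. Against lactate 0 rose and 2 fell, beside 26.1% and 23.6%. The counts against NaCl are near the shares of all genes, as is the count that fell against lactate.

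Pyruvate and lactate were given at the same dose for the same day and form 1 matched pair of compounds; lactate dehydrogenase interconverts them, pyruvate having a keto group where lactate has a hydroxyl group. mt-Rnr2 had 2109, 2562 and 2177 CPM with pyruvate, all below the 3558 to 4249 CPM of the lactate libraries, and was 1.67-fold lower with pyruvate than with lactate (-0.74 ± 0.08, adjusted p = 3.96e-06). mt-Rnr1 had 579, 729 and 572 CPM with pyruvate, again below every lactate library, and was 1.63-fold lower (-0.70 ± 0.12, adjusted p = 0.000323). Against NaCl the pyruvate libraries overlapped for both rRNAs. The difference was -0.08 for mt-Rnr2 (95% interval -0.25 to 0.08, adjusted p = 0.524) and -0.06 for mt-Rnr1 (95% interval -0.31 to 0.18, adjusted p = 0.77). For pyruvate against lactate 0 of the 10 rose and 2 fell, beside 13% and 10.9% of all tested genes. For pyruvate against NaCl 0 rose and 2 fell, beside 9.4% and 6.28%, and the 2 that fell were the mRNAs mt-Cytb and mt-Nd4l. The comparisons with NaCl share the NaCl libraries, and those with lactate share the lactate libraries, so the 5 comparisons are not independent.

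**Figure D2:**
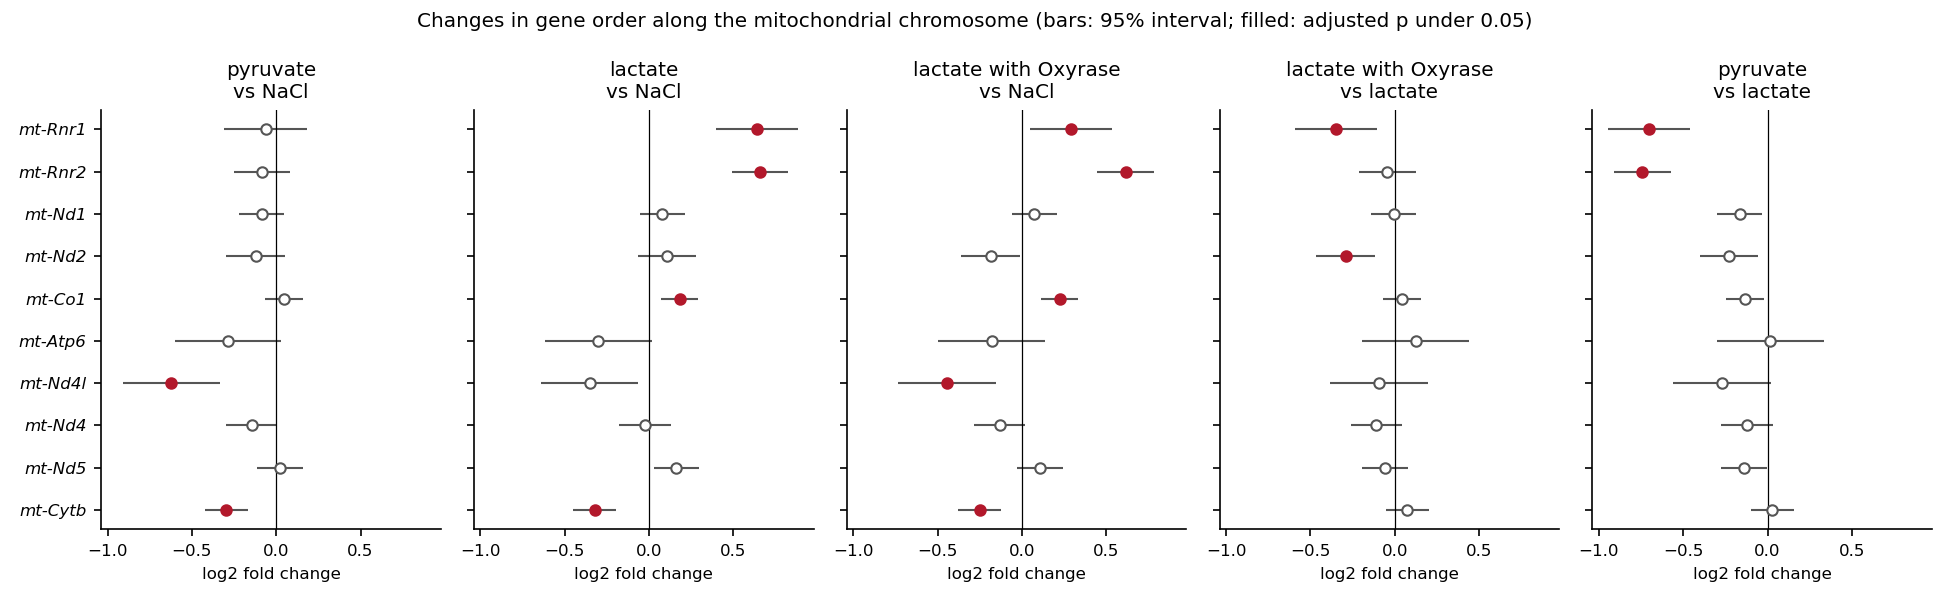
Log2 fold changes (horizontal axes) of the 10 transcripts, listed from top to bottom in their order along the mitochondrial chromosome, in the 5 comparisons. Points are estimates, bars are 95% intervals, and filled points have an edgeR adjusted p under 0.05. The rRNA estimates reach 0.66 for lactate against NaCl and -0.74 for pyruvate against lactate, while mt-Cytb lies below 0 in all 3 comparisons with NaCl.

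Other RNAs that lack a poly(A) tail were read beside the rRNAs. Among small RNAs without a tail 6 of 179 genes could be tested, and with lactate against NaCl 0 rose and 0 fell. Their summed level was 10.5 to 22.4 CPM with lactate, against 19.5 to 29.4 CPM with NaCl. Replication-dependent histone genes, whose mRNAs end in a stem-loop, summed to 108 to 114 CPM with lactate, against 106 to 137 CPM with NaCl, and 0 of 47 tested rose and 2 fell (3.61% of all tested genes rose and 4.12% fell). With lactate and Oxyrase the histone sum was 76.6 to 89.9 CPM and with pyruvate 80.9 to 96.2 CPM. Of the 47 tested, 3 rose and 9 fell with pyruvate against lactate (13% and 10.9% of all tested genes). Against NaCl 1 rose and 8 fell with pyruvate (9.4% and 6.28%). With lactate and Oxyrase 1 rose and 12 fell against NaCl (26.5% and 24.3%), and 5 rose and 11 fell against lactate (26.1% and 23.6%). The list's median log2 fold change was -0.62, -0.75, -0.57 and -0.33 in this order, and -0.21 with lactate against NaCl. The 22 mitochondrial tRNAs were listed at 0 in every library. The nuclear-retained RNAs Malat1 and Neat1 summed to 698 to 855 CPM with lactate and Oxyrase, 568 to 614 CPM with pyruvate, 490 to 566 CPM with lactate and 456 to 515 CPM with NaCl. With lactate and Oxyrase against NaCl 2 of these 2 rose (26.5% of all tested genes rose), Malat1 by 0.71 ± 0.06 (adjusted p = 7.41e-08). Against lactate 1 rose with lactate and Oxyrase (26.1%), and against NaCl 1 rose with pyruvate (9.4%). In these comparisons 0 fell. With lactate against NaCl and with pyruvate against lactate 0 of these 2 rose or fell. Lars2, the mRNA of the mitochondrial leucyl-tRNA synthetase, was read as the 1 gene found of a list related to ribosomal RNA. It had 664 to 1545 CPM with lactate, against 1179 to 3198 CPM with NaCl, and was not called. Whether these counts stem from its own mRNA was not tested. Whether the tails of the mitochondrial rRNAs or their capture differed between groups was not tested.

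The mRNA for cytochrome b, the membrane subunit through which complex III passes electrons from ubiquinol, was lower in all 3 treatments than with NaCl. mt-Cytb had 2323, 2340 and 2300.5 CPM with lactate and Oxyrase, 2053, 2400 and 2291 CPM with pyruvate and 2028, 2362 and 2226 CPM with lactate. The NaCl libraries had 2722, 2582 and 2973 CPM. Each NaCl library was above all 9 treated libraries. mt-Cytb fell 1.19-fold with lactate and Oxyrase (-0.25 ± 0.06, adjusted p = 0.00234), 1.23-fold with pyruvate (-0.30 ± 0.06, adjusted p = 0.00317) and 1.25-fold with lactate (-0.32 ± 0.06, adjusted p = 0.00443). These 3 estimates rest on the same 3 NaCl libraries. Between pyruvate and lactate mt-Cytb differed by 0.03 (95% interval -0.10 to 0.16), and between lactate with Oxyrase and lactate by 0.07 (95% interval -0.05 to 0.20), and neither was called.

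The mRNA for the catalytic subunit of cytochrome c oxidase, which hands electrons to oxygen, was higher in both lactate groups than with NaCl. mt-Co1 had 14988, 16350 and 15013 CPM with lactate and Oxyrase and 14452, 15830 and 14699 CPM with lactate, against 13111, 12361 and 14200 CPM with NaCl. Neither lactate group overlapped with NaCl. mt-Co1 rose 1.17-fold with lactate and Oxyrase (0.22 ± 0.05, adjusted p = 0.00173) and 1.13-fold with lactate (0.18 ± 0.05, adjusted p = 0.0447). The call for lactate was lost without NaCl 1 (adjusted p = 0.120), NaCl 2 (0.193), lactate 2 (0.176) or lactate 3 (0.0778), and with replicate number as a block (0.0558). With pyruvate mt-Co1 had 12930, 14230 and 13820 CPM, which lay below every lactate library and overlapped with NaCl. It differed from lactate by -0.13 (95% interval -0.25 to -0.02, adjusted p = 0.074) and from NaCl by 0.05 (95% interval -0.06 to 0.16).

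Within a library, the ratio of mt-Cytb to mt-Co1 held the NaCl libraries close together and above the other 9. There were 15.5, 14.3 and 15.3 mt-Cytb counts per 100 mt-Co1 counts with lactate and Oxyrase, 15.9, 16.9 and 16.6 with pyruvate, and 14.0, 14.9 and 15.1 with lactate. The NaCl libraries had 20.8, 20.9 and 20.9. Such a ratio does not depend on library scaling, but it shows unequal change and not which gene changed, and its difference between groups was not tested. mt-Co1 made up 56.6 to 57.1% of the counts of the 8 mRNAs with lactate and Oxyrase, 54.3 to 55.1% with pyruvate, 54.0 to 56.5% with lactate and 51.4 to 51.9% with NaCl.

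**Figure D3:**
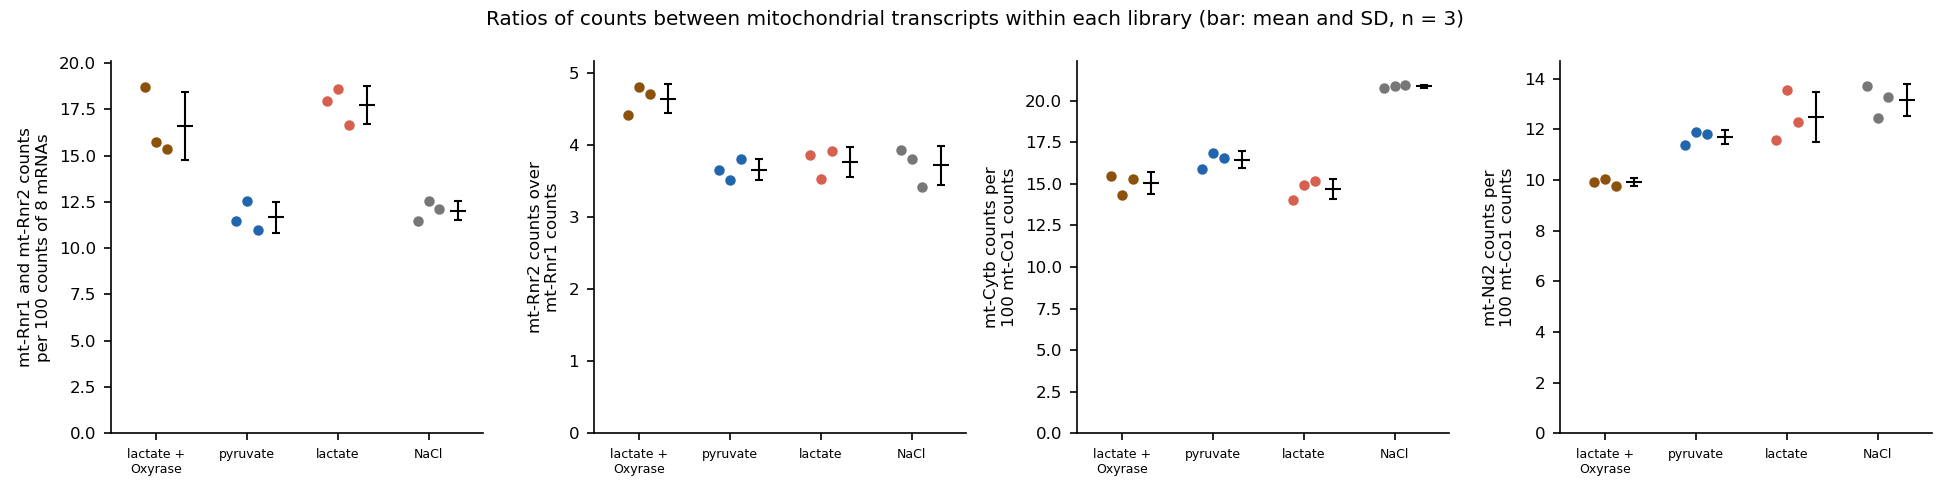
Ratios of counts within each library (vertical axes, starting at 0) for lactate with Oxyrase, pyruvate, lactate and NaCl: rRNA counts per 100 counts of the 8 mRNAs, mt-Rnr2 over mt-Rnr1, and mt-Cytb and mt-Nd2 per 100 mt-Co1 counts. Coloured points are libraries, and the black bar gives the mean and SD of 3. The rRNA ratio is 15.3 to 18.7 in the libraries with lactate and 11.0 to 12.6 in the others, mt-Rnr2 over mt-Rnr1 is 4.42 to 4.80 with lactate and Oxyrase and 3.41 to 3.92 elsewhere, and mt-Cytb per 100 mt-Co1 is 20.8 to 20.9 with NaCl.

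The rRNAs also stood apart from the mRNAs of the same chromosome within each library. There were 18.7, 15.7 and 15.3 rRNA counts per 100 counts of the 8 mRNAs with lactate and Oxyrase, 11.4, 12.6 and 11.0 with pyruvate, 18.0, 18.6 and 16.6 with lactate, and 11.5, 12.5 and 12.1 with NaCl. The 6 libraries with lactate did not overlap with the other 6. Beside it, the 8 mRNAs together took 2.59 to 2.86% of all counts with lactate and Oxyrase, 2.38 to 2.61% with pyruvate, 2.57 to 2.88% with lactate and 2.43 to 2.73% with NaCl, and these ranges all overlapped. Relative to its neighbour on the chromosome, mt-Nd1, mt-Rnr2 had 1.18 to 1.46 counts per mt-Nd1 count with lactate and Oxyrase, 0.836 to 0.948 with pyruvate, 1.25 to 1.38 with lactate and 0.861 to 0.930 with NaCl. The ratio of mt-Rnr2 to mt-Rnr1 was 4.42, 4.80 and 4.70 with lactate and Oxyrase, 3.64, 3.51 and 3.80 with pyruvate, 3.85, 3.53 and 3.91 with lactate and 3.92, 3.81 and 3.41 with NaCl. Only the Oxyrase libraries were above 4 in this ratio. None of these ratios was tested.

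Of the complex I mRNAs, whose products form part of the proton-pumping membrane arm, mt-Nd2 was called in 1 comparison and mt-Nd1, mt-Nd4 and mt-Nd5 not at all. mt-Nd2 had 1486, 1644 and 1464 CPM with lactate and Oxyrase, against 1675, 2142 and 1804 CPM with lactate. The groups did not overlap, and mt-Nd2 fell 1.22-fold with Oxyrase (-0.29 ± 0.08, adjusted p = 0.00725). Without lactate 2 the change was -0.19 (adjusted p = 0.0545). Its counts per 100 mt-Co1 counts were 9.92, 10.1 and 9.75 with lactate and Oxyrase, 11.4, 11.9 and 11.8 with pyruvate, 11.6, 13.5 and 12.3 with lactate and 13.7, 12.5 and 13.3 with NaCl. The Oxyrase libraries were lowest in this ratio. With pyruvate mt-Nd2 had 1471, 1693 and 1635 CPM and with NaCl 1797, 1540 and 1884 CPM; the pyruvate difference was -0.23 against lactate (95% interval -0.40 to -0.05, adjusted p = 0.0539) and -0.12 against NaCl.

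mt-Nd1 had 2776, 3035 and 2822 CPM with lactate and Oxyrase, 2422, 2703 and 2605 CPM with pyruvate, 2647, 3174 and 2848 CPM with lactate and 2706, 2540 and 2958 CPM with NaCl. Its estimate nearest to the threshold was -0.17 for pyruvate against lactate (95% interval -0.30 to -0.03, adjusted p = 0.0686). mt-Nd4 had 2380, 2749 and 2291 CPM with lactate and Oxyrase, 2310, 2642 and 2397 CPM with pyruvate, 2372, 2859 and 2766 CPM with lactate and 2734, 2566 and 2833 CPM with NaCl. Its estimates ran between -0.15 for pyruvate against NaCl and -0.02 for lactate against NaCl. mt-Nd5 had 2347, 2411 and 2229 CPM with lactate and Oxyrase, 2088, 2339 and 2156 CPM with pyruvate, 2247, 2704 and 2311 CPM with lactate and 2195, 1999 and 2295 CPM with NaCl. Its highest estimate was 0.16 for lactate against NaCl (95% interval 0.03 to 0.30, adjusted p = 0.132). For mt-Nd1, mt-Nd4 and mt-Nd5 the groups overlapped in all 5 comparisons.

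mt-Nd4l and mt-Atp6 have low counts, and RefSeq places genes of the same length as each on chromosome 1. Gm10925 (ENSMUSG00000100862, chromosome 1, 24613971 to 24614651) has 681 bp like mt-Atp6 and carries its name among its synonyms, and Gm10222 (ENSMUSG00000067736, 24612404 to 24612700) has 297 bp like mt-Nd4l. The pair lie 1567 bp apart by their starts on chromosome 1, and the end of each nuclear gene and the start of its mitochondrial partner sum to values 1 bp apart, as they would if the stretch lay in reverse on chromosome 1. Their sequences were not compared. mt-Atp6 held 7.06 to 10.1% of the counts given to mt-Atp6 and Gm10925 together, and mt-Nd4l held 13.2 to 25.3% of those given to mt-Nd4l and Gm10222. How the counting split reads between them was not tested, so the levels of both mitochondrial genes are uncertain.

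**Figure D4:**
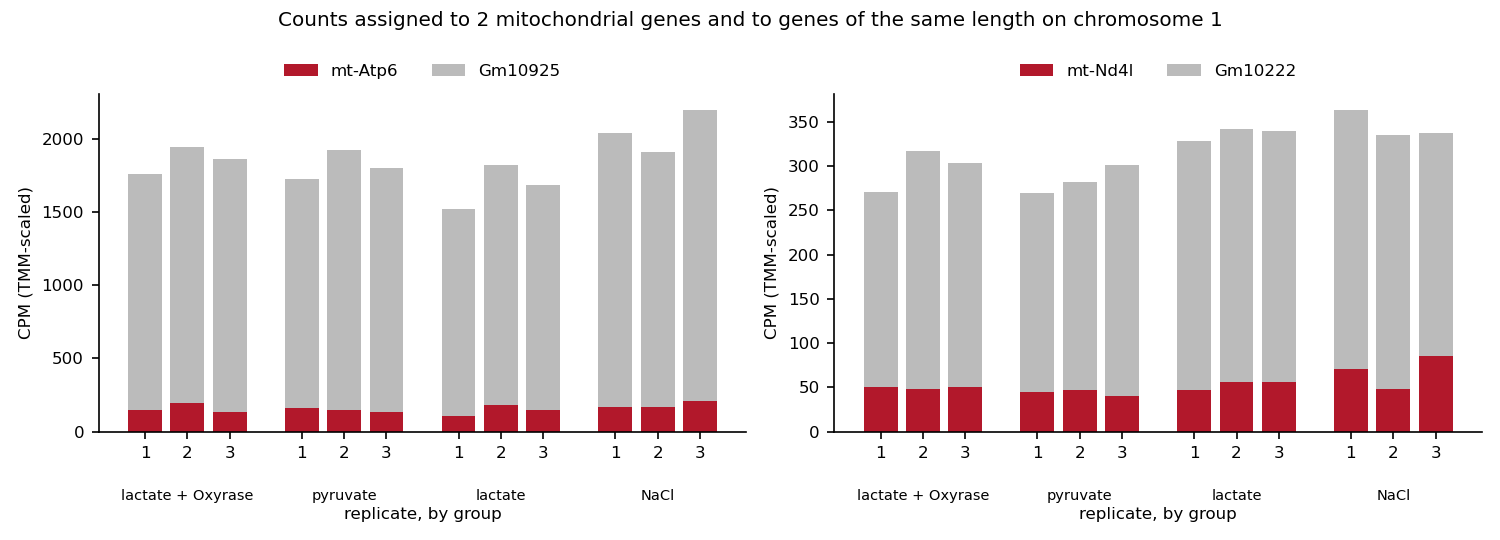
CPM after TMM scaling (vertical axes, starting at 0) assigned to mt-Atp6 and Gm10925 and to mt-Nd4l and Gm10222 in each library, as stacked bars for replicates 1 to 3 of lactate with Oxyrase, pyruvate, lactate and NaCl. The mitochondrial gene takes the lower, red part of each bar. It holds 7.06 to 10.1% of the mt-Atp6 pair and 13.2 to 25.3% of the mt-Nd4l pair, with the highest share of mt-Nd4l in a NaCl library.

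As counted, mt-Nd4l, a small subunit of complex I, had 50.3, 48.4 and 50.5 CPM with lactate and Oxyrase, 44.6, 47.4 and 39.8 CPM with pyruvate, 46.4, 56.2 and 56.1 CPM with lactate and 70.6, 48.0 and 85.5 CPM with NaCl. The NaCl libraries spread most, and NaCl 2 was about as low as the treated libraries. mt-Nd4l fell 1.54-fold with pyruvate against NaCl (-0.62 ± 0.14, adjusted p = 0.00519). It fell with lactate and Oxyrase against NaCl (-0.45 ± 0.14, adjusted p = 0.0118), but not without NaCl 3 (-0.25, adjusted p = 0.0954). The sum of mt-Nd4l and Gm10222, a setting chosen after the counts were seen, was 271 to 317 CPM with lactate and Oxyrase, 269 to 302 CPM with pyruvate, 329 to 342 CPM with lactate and 336 to 364 CPM with NaCl. The summed pair fell by smaller steps, -0.28 ± 0.05 with pyruvate (adjusted p = 0.00158) and -0.22 ± 0.05 with lactate and Oxyrase (adjusted p = 0.00233) against NaCl. Against lactate the sum also fell, with pyruvate (-0.24 ± 0.05, adjusted p = 0.00283) and with lactate and Oxyrase (-0.18 ± 0.05, adjusted p = 0.0091), where mt-Nd4l as counted was not called (adjusted p = 0.171 and 0.612).

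mt-Atp6 as counted had 147, 193 and 137 CPM with lactate and Oxyrase, 161, 147 and 134 CPM with pyruvate, 107, 184 and 145 CPM with lactate and 168, 165 and 207 CPM with NaCl. It was called in 0 of the 5 comparisons, with an interval of -0.62 to 0.01 for lactate against NaCl. Summed with Gm10925 it had 1761 to 1944 CPM with lactate and Oxyrase, 1725 to 1929 CPM with pyruvate, 1519 to 1824 CPM with lactate and 1910 to 2200.5 CPM with NaCl. The sum fell with lactate against NaCl (-0.29 ± 0.06, adjusted p = 0.00994), and no lactate library reached the NaCl range. Against NaCl the sum stood at -0.17 with pyruvate (adjusted p = 0.0715) and at -0.14 with lactate and Oxyrase (adjusted p = 0.0648).

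The chromosome encodes 5 further mRNAs. mt-Co3, a core subunit of complex IV, had 442, 189 and 214 CPM with lactate and Oxyrase, against 56.5, 189 and 166 CPM with lactate. It rose by 1.03 ± 0.33 (adjusted p = 0.0147), and Oxyrase 1 was the highest and lactate 1 the lowest of all 12 libraries. The value of mt-Co3 without them was not computed. mt-Co3 (8607 to 9390) and mt-Nd3 (9459 to 9806) lie between mt-Atp6 and mt-Nd4l on the mitochondrial chromosome. Whether they share reads with chromosome 1 was not tested, so their levels are uncertain too. mt-Nd6, the complex I mRNA of the opposite strand, had 332, 357 and 335 CPM with pyruvate, against 346, 513 and 410 CPM with lactate. It fell by 0.31 ± 0.10 on the log2 scale (adjusted p = 0.032) although the groups overlapped. The TruSeq v2 kit does not mark strand, so reads of mt-Nd6 and of RNA antisense to it cannot be told apart. Whether the capture of mt-Nd6 in poly(A) libraries differed between groups was not tested. mt-Co2, mt-Atp8 and mt-Nd3 were called in 0 of the 5 comparisons. Between libraries mt-Co2 spread widely, from 159 CPM in lactate 3 to 467 CPM in Oxyrase 1. Whether mt-Co2 and mt-Atp8 share reads with chromosome 1 was not tested either, so their levels and the lack of a call are uncertain.

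Nuclear genes that serve the mitochondrial chromosome were read from 3 lists. Among all tested genes 9.4% rose and 6.28% fell with pyruvate against NaCl, 3.61% and 4.12% with lactate against NaCl, and 13% and 10.9% with pyruvate against lactate. With lactate and Oxyrase 26.5% rose and 24.3% fell against NaCl, and 26.1% and 23.6% against lactate. Of 18 genes for transcription and replication of mtDNA, 0 rose and 2 fell with pyruvate against NaCl, and 0 rose and 2 fell with lactate against NaCl. With lactate and Oxyrase 3 rose and 5 fell against NaCl, and 2 rose and 2 fell against lactate. With pyruvate against lactate 1 rose and 4 fell. The list's median log2 fold change was -0.05, -0.01, -0.08, -0.05 and -0.01 in these 5 comparisons, where the median of all tested genes was 0.00 after rounding. Primpol, a primase that restarts stalled replication, rose with lactate and Oxyrase (0.64 ± 0.06 against NaCl, adjusted p = 4.54e-08; 0.52 ± 0.05 against lactate). Tfb1m, the methyltransferase that modifies the 12S rRNA, rose as well (0.26 ± 0.08 against NaCl, adjusted p = 0.00776). Polg, the catalytic subunit of the mtDNA polymerase, fell with pyruvate (-0.16 ± 0.04, adjusted p = 0.0175) and with lactate (-0.17 ± 0.04, adjusted p = 0.0256) against NaCl. Mpv17, an inner membrane protein needed to keep mtDNA, fell with lactate against NaCl (-0.31 ± 0.09, adjusted p = 0.0448) and was higher with pyruvate than with lactate (0.28 ± 0.09, adjusted p = 0.0317). The helicase Twnk (-0.19 ± 0.05) and the topoisomerase Top1mt (-0.30 ± 0.09) were lower with pyruvate than with lactate (adjusted p = 0.0152 and 0.0276).

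Of 42 genes for mitochondrial RNA processing, decay and translation, 3 rose and 1 fell with lactate against NaCl (3.61% and 4.12% of all tested genes). Those that rose were Hsd17b10, a subunit of the enzyme that cuts tRNAs at their leading end (0.20 ± 0.05, adjusted p = 0.036), Elac2, which cuts them at the trailing end (0.17 ± 0.04, adjusted p = 0.0289), and Gfm2, a factor that recycles mitochondrial ribosomes (0.18 ± 0.05, adjusted p = 0.0352). Noct, a circadian phosphatase that can enter mitochondria, fell (-0.37 ± 0.03, adjusted p = 3.01e-06) and was higher with pyruvate than with lactate (0.42 ± 0.03, adjusted p = 9.43e-08). With pyruvate 0 rose and 7 fell against NaCl (9.4% and 6.28% of all tested genes), and 1 rose and 9 fell against lactate (13% and 10.9%). Lrpprc, which stabilises mitochondrial mRNAs and their poly(A) tails, was among those that fell against NaCl (-0.16 ± 0.04, adjusted p = 0.0075), as was the elongation factor Tsfm (-0.27 ± 0.06, adjusted p = 0.00502).

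With lactate and Oxyrase 7 of these 42 rose and 21 fell against NaCl (26.5% and 24.3% of all tested genes), and 5 rose and 23 fell against lactate (26.1% and 23.6%), with medians of -0.13 in both. Tsfm fell against both (-0.51 ± 0.06 against NaCl, adjusted p = 1.62e-06, and -0.58 ± 0.06 against lactate). The oligoribonuclease Rexo2 (-0.54 ± 0.05, adjusted p = 4.71e-08) and the RNA-binding proteins Fastkd2 (-0.50 ± 0.05) and Fastkd3 (-0.46 ± 0.05) fell against NaCl. Against lactate Rbfa, which matures the small mitochondrial ribosomal subunit, fell (-0.46 ± 0.05, adjusted p = 7.17e-07), and Nsun4, a methyltransferase of the 12S rRNA, rose (0.45 ± 0.05, adjusted p = 1.22e-06). Of 8 tested regulators of mitochondrial biogenesis, beside the same shares of all tested genes, 3 rose and 4 fell with lactate and Oxyrase against NaCl, and 2 rose and 4 fell against lactate. Myc (-0.69 ± 0.04), the coactivator Ppargc1b (-0.79 ± 0.11) and the respiratory factor Nrf1 (-0.38 ± 0.05) fell against lactate (adjusted p = 8.01e-10, 1.88e-05 and 3.34e-06), while Gabpb1 rose (0.29 ± 0.05). With pyruvate against lactate 0 of the 8 rose and 2 fell (13% and 10.9% of all tested genes). Ppargc1b was among those that fell (-0.52 ± 0.11, adjusted p = 0.00239). Against NaCl 0 rose and 1 fell with pyruvate (9.4% and 6.28%), the latter being Pprc1 (-0.13 ± 0.04). With lactate against NaCl 0 rose and 0 fell (3.61% and 4.12%).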

How the data were processed

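RNA was measured in 12 poly(A) libraries (TruSeq v2, which does not mark strand) of 4 groups; the ATAC-seq peak counts were not used, since mitochondrial reads had been removed from them per the file headers. The values are estimated counts per gene, deposited by the authors in a table that its name calls adjusted; per the submitters' processing notes RSEM 1.2.12, Bowtie2 2.2.0, Trimmomatic and the mm10 build were used. Of the non-zero deposited values 99.24% were whole within 1e-09. Non-whole values above 1 occurred in 460 genes, of which 448 were at 0 throughout 1 replicate number, so an adjustment for replicate number is likely and the p-values may be too small. All values of the listed genes were whole.

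Estimated counts were rounded, filtered with filterByExpr, scaled by TMM and fitted for all genes in 1 quasi-likelihood model of the 12 libraries (edgeR 4.0.16, R 4.3.3; 8 residual degrees of freedom; biological coefficient of variation 5.05%), with no replicate term. The Benjamini-Hochberg method adjusted p-values over the 14749 genes tested, with 0.05 as threshold; "rose" and "fell" mean an adjusted p under it. Each SE was derived from the estimate and its F statistic. Levels are TMM-scaled CPM, and levels per kb use RefSeq gene lengths (GRCm38.p6, the same build as mm10). Symbols matched 55141 of 55401 identifiers. The code of the fit was run on simulated data with known changes in the pyruvate libraries only, read for pyruvate against NaCl. That run does not bear on the calls reported here. Alternatives, run for the 10 listed genes and for the counts of calls, changed the scaling, the filter, the samples in the model and the tool (DESeq2 1.42.0), added replicate number as a term, left out each library in turn and, chosen after the counts were seen, summed mt-Atp6 and mt-Nd4l with their partners on chromosome 1.

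The 10 listed genes, and the lists of other genes, were chosen with earlier results of these data known. Named genes were the 10, the other 5 mitochondrial mRNAs, up to 4 called genes of each nuclear list with the largest absolute change per comparison, and 3 genes nearest in pattern to mt-Rnr2 and to the mean of the 8 mRNAs; Malat1, Neat1, Lars2, Gm10925 and Gm10222 were named in addition. Figures were drawn with matplotlib 3.10.9 in Python 3.11.15.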

Additional observations from a re-analysis of the deposited data

How the results depend on the processing

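Each log2 fold change of the 10 transcripts was recomputed under 14 alternatives, 700 values in all. Of these 646 kept their side of the threshold, although some uncalled estimates changed sign, 17 lost their call, 37 gained one and 0 called changes turned round. The calls of mt-Rnr2 and mt-Rnr1 for lactate against NaCl and for pyruvate against lactate held under all 14. So did those of mt-Rnr2 and mt-Co1 for lactate with Oxyrase against NaCl and of mt-Cytb in all 3 comparisons with NaCl. The call of mt-Nd4l for pyruvate against NaCl also held under all 14. For mt-Nd4l these include its sum with Gm10222, where the estimate was -0.28, against -0.62 as counted. With no filter on low counts the number of transcripts called was 5 for pyruvate against NaCl (2 as reported), 7 for lactate against NaCl (4), 9 for lactate with Oxyrase against NaCl (5), 4 for lactate with Oxyrase against lactate (2) and 8 for pyruvate against lactate (2); the cause was not tested. A model of only the groups compared called 5 for pyruvate against lactate, and DESeq2 called 1 for lactate with Oxyrase against lactate. Leaving out each library gave 0 to 3 calls for lactate with Oxyrase against lactate (0 without lactate 2, 1 without Oxyrase 3) and 2 to 4 for pyruvate against lactate (4 without lactate 1). With a replicate block the counts were 2, 3, 5, 2 and 2 in the order above, the call lost being mt-Co1 for lactate against NaCl. Over all genes, lactate against NaCl gave 1140 calls, 671 with the replicate block, 1724 with no filter, and, leaving out NaCl 1, NaCl 2, lactate 2 or lactate 3, 529, 451, 513 or 670; pyruvate against NaCl gave 2313, 1492 without NaCl 2 and 1281 without pyruvate 2. Whether replicate numbers pair the samples cannot be told: deviations from the group mean of same-numbered libraries correlated at -0.210 to -0.0986, and the likely adjustment for replicate number before deposit would itself lower these values. Scaling choices moved the median of all genes by less than 0.04 on the log2 scale. Precision was lowest for mt-Nd4l and mt-Atp6 (SE 0.14 and 0.15 for lactate against NaCl), which had as few as 1147 and 3061 counts in a library. Summed with their partners on chromosome 1, the SEs were 0.05 and 0.06 in that comparison. What set the precision was not tested.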

Other observations

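Among 8592 nuclear genes whose log2 CPM averaged 3 or more, those nearest to the pattern of mt-Rnr2 over the 12 libraries were Slc35d3, Snrnp35 and Ctsl. Nearness was the root mean square difference of log2 CPM centred over the libraries, which was 0.154 for Slc35d3, 0.160 for Snrnp35 and 0.173 for Ctsl, where the pattern of mt-Rnr2 itself had 0.357. Slc35d3, a transporter of the solute carrier family, averaged 11.3 ± 0.781 CPM with lactate and Oxyrase, 7.40 ± 0.856 CPM with pyruvate, 10.3 ± 0.456 CPM with lactate and 6.82 ± 0.518 CPM with NaCl (SD, n = 3 each). Snrnp35, a protein of the minor spliceosome, averaged 16.4 ± 1.69, 11.4 ± 0.657, 15.2 ± 0.571 and 12.1 ± 0.391 CPM in the same groups. Ctsl, the lysosomal protease cathepsin L, averaged 23.4 ± 0.286, 14.4 ± 0.701, 19.3 ± 1.09 and 13.9 ± 0.816 CPM. The mean pattern of the 8 listed mRNAs was flatter, at 0.120, and nearest to it were Eif4g3 (0.0744), Ublcp1 (0.0785) and Tecpr2 (0.0832). These genes were picked for their likeness, so the values describe them and were not tested.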
